A study of Homo sapiens with 4 samples.

Results

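The genes described here are 10 nuclear genes that copy, transcribe and maintain the DNA of mitochondria (mtDNA), or that switch on the genes for doing so: TFAM, TFB1M, TFB2M, POLRMT, POLG, TWNK, SSBP1, LRPPRC, SLIRP and NRF1. They were chosen by name, each matched 1 of the 60564 gene identifiers in the count files, and all 10 were among the 22555 genes tested. RNA-seq was performed on Elf1 cells, a naïve human embryonic stem cell (ESC) line, in 2 culture conditions with 2 independent biological replicates each. By the sample labels, 2-D grown cells adhered to Matrigel-coated plastic. The study's methods describe routine growth of the line on mouse embryonic feeder cells, and a change to Matrigel without feeders before encapsulation. 3-D grown cells had been dissociated, encapsulated as single cells in self-assembling polyethylene glycol gels made of PEG-8-SH and PEG-8-Acr, and kept there for 21 days in the same ESC expansion medium. Both conditions come from this single line, and the sample labels name no transgene or genetic change in either. The comparison asks how the transcriptome of naïve ESCs differs between the culture conditions, and all fold changes below are of 3-D over 2-D grown cells.

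The mitochondrial genome encodes protein subunits of the respiratory chain and the rRNAs and tRNAs needed to translate them, whereas every protein that copies or transcribes it is made from nuclear genes and imported. POLRMT, the mitochondrial RNA polymerase, starts transcription together with TFAM and TFB2M, and the transcripts of the 2 strands are long and are cut into single RNAs. POLG, the helicase TWNK and the single-strand binding protein SSBP1 form the replication fork. LRPPRC and SLIRP form a complex that keeps mitochondrial mRNAs stable and polyadenylated, and NRF1 is a nuclear transcription factor for many genes of mitochondria. Naïve ESCs are known for using mitochondrial respiration beside glycolysis.

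Libraries held 33833778 and 30114220 counts from 2-D and 21154409 and 18276147 counts from 3-D grown cells. The quasi-likelihood test of edgeR called 7.9% of the 22555 tested genes, that is, gave them an adjusted p under 0.05. Of these calls 57.5% were higher in 3-D grown cells, and 21.5% when libraries were scaled by their size alone, which shifts the median gene by −0.064 on the log2 scale. CPM are normalized counts relative to library size, and SE is the standard error. Among the 7846 genes with a mean of at least 20 CPM, as all 10 genes here had, the test called 18%. The core pluripotency genes POU5F1, SOX2 and NANOG summed to 529 to 535 CPM in 2-D and 556 to 583 CPM in 3-D libraries, and were not called, although 2 of the 3 had an unadjusted p below 0.05. The naïve markers summed to 53.7 to 57.6 CPM with DPPA5 at 0 to 4 counts, and the 5 trophoblast markers to 3.28 to 4.35 CPM. Of 7 fibroblast markers, COL1A1, COL3A1 and THY1 were called higher in 3-D grown cells. COL1A2 had 325 and 316 CPM in 2-D and 301 and 325 CPM in 3-D libraries. COL1A2 and PDGFRB were not called, with log2 fold changes of −0.037 and 0.017. DCN was below 0.2 CPM throughout and LUM below 1 CPM. The list summed to 529 to 537 CPM in 2-D and 546 to 595 CPM in 3-D libraries. The part of these markers in the results below was not tested. The endoderm list summed to 6.10 and 6.94 CPM in 2-D and 7.93 and 8.20 CPM in 3-D libraries. The mesoderm list summed to 66.6 and 66.3 CPM in 2-D and 71.1 and 71.5 CPM in 3-D libraries. The neural ectoderm list summed to 29.2 and 25.7 CPM in 2-D and 27.4 and 27.3 CPM in 3-D libraries. No tested gene of these lists was called. In bulk RNA, a change in the number of cells of a type and a change in RNA per cell cannot be told apart.

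Of the 10 genes, SLIRP alone was called, lower in 3-D grown cells, where the background is 3.36% of tested genes called lower and 4.54% called higher. An unadjusted p below 0.05 was found for SLIRP, TFAM, LRPPRC and TFB2M, all 4 with lower values in 3-D grown cells, where 21.3% of all tested genes had such a p. Over the 10 genes the median log2 fold change was −0.075, with 6 values below 0 and 4 above, and over all tested genes it was −0.00014. In 8 of the 10 genes the libraries of the conditions did not overlap, which was also true of 50.5% of tested genes. In contrast, 12 of the 13 mitochondrially encoded proteins were called higher, with a median of 0.76.

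**Figure D1:**
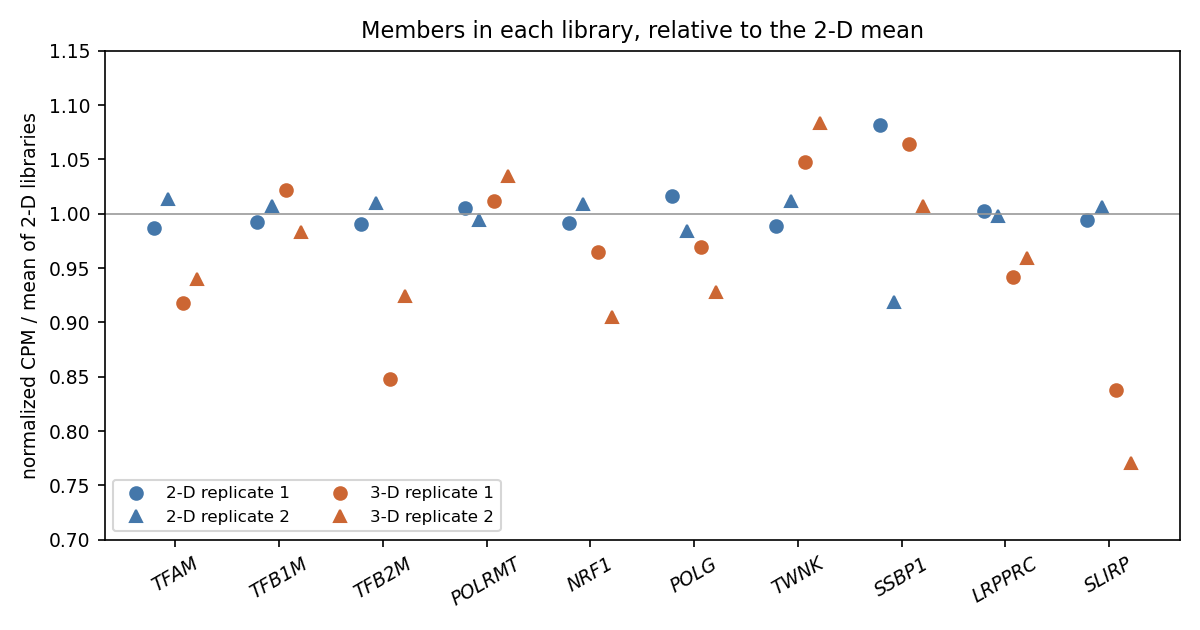
Each point is the normalized CPM of 1 of the 10 genes in 1 library, divided by the gene's mean over the 2 libraries from 2-D grown cells; circles are replicate 1 and triangles replicate 2 of 2-D (blue) and 3-D (orange) grown cells. Both 3-D libraries of SLIRP lie far below its 2-D libraries, TFAM, TFB2M, LRPPRC, POLG and NRF1 are lower by less, and the points of TFB1M and SSBP1 overlap.

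Levels can be compared between genes only per length, and CPM per kilobase of the canonical transcript were used for that. Counts are of whole genes, whose annotated exons can cover more bases than that transcript. For SLIRP these were 2631 against 376 bases and for LRPPRC 34689 against 6603. The levels and their order therefore depend on the length chosen. In 2-D grown cells the highest mean was that of SLIRP with 289 ± 2.43 CPM per kilobase (SD, n = 2 for all), followed by LRPPRC with 66.5 ± 0.202, SSBP1 with 40.9 ± 4.73 and TFAM with 30.3 ± 0.563. POLG had 16.9 ± 0.387, POLRMT 15.0 ± 0.112, TFB2M 13.8 ± 0.185, TWNK 12.7 ± 0.21, TFB1M 8.90 ± 0.0945 and NRF1 7.27 ± 0.0903 CPM per kilobase. No neighbours in this order overlapped in the 2-D libraries. In the 3-D libraries the order was the same except that TWNK, with 13.3 and 13.7 CPM per kilobase, lay above TFB2M, with 11.7 and 12.8.

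TFAM, on chromosome 10 from 58385345 to 58399220 of hg38, encodes the protein that coats mtDNA and bends its promoters. It had 150.5 and 154.5 CPM in the 2-D libraries and 140 and 143 CPM in the 3-D libraries. Both 3-D libraries were below both 2-D libraries, by a log2 fold change of −0.11 with an error of 0.03 (SE; edgeR, adjusted p = 0.0546), so TFAM did not pass the threshold. It lies close to that threshold, and over the 15 alternatives its adjusted p ranged from 0.00554 to 0.472, with 5 of them below 0.05. Without 3-D replicate 2 the adjusted p was 0.00829, with a log2 fold change of −0.12.

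TFB2M, on chromosome 1 from 246540561 to 246566261, opens the mitochondrial promoter for the polymerase. It had 24.4 and 24.9 CPM in 2-D and 20.9 and 22.8 CPM in 3-D libraries, which do not overlap. Its log2 fold change of −0.18 with an error of 0.07 (SE; edgeR, adjusted p = 0.173) was the second most negative of the 10 genes and did not pass. A copy on chromosome 6 aligned to 96.2% of the TFB2M transcript at 91.5% identity, and counts at that copy were not examined. TFB1M, the paralog of TFB2M, on chromosome 6 from 155256134 to 155314493, methylates the small mitochondrial rRNA. It had 24.7 and 25.1 CPM in 2-D and 25.4 and 24.5 CPM in 3-D libraries, with a log2 fold change of 0.0049 (SE 0.07, adjusted p = 0.98), and the conditions overlapped. With library size only, at least 10 counts in every library, without 2-D replicate 1 or without 3-D replicate 1, its sign was negative. The exons of TFB1M share 30.8% of their bases with TIAM2 on the opposite strand, and the methods do not state whether strand was used in counting, so its counts are uncertain.

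POLRMT, on chromosome 19 from 617221 to 633537, had 56.7 and 56.1 CPM in 2-D and 57.1 and 58.4 CPM in 3-D libraries. The libraries did not overlap, yet the log2 fold change was 0.03 (standard error 0.04, adjusted p = 0.723), and it was −0.031 when scaled by library size alone and −0.019 with offsets for transcript length and GC content. A pseudogene copy on chromosome 17 aligned to 98.5% of its transcript at 97.7% identity, and POLRMTP1 held between 3.34% and 4.97% as many counts as POLRMT.

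The nuclear factor NRF1, on chromosome 7 from 129611720 to 129757082, had 25.4 and 25.8 CPM in 2-D and 24.7 and 23.1 CPM in 3-D libraries. The 3-D libraries were both lower, with a log2 fold change of −0.096 (SE 0.07, adjusted p = 0.476) that did not pass under any of the 15 alternatives. The promoters of the genes are shown because NRF1 is itself one of the 10 and is known to bind promoters of genes of this kind. RefSeq windows on GRCh38.p14, from 250 bases before to 50 after a transcript start, were found for 8 of the 10 genes (11 windows), and not for TWNK and NRF1. They were searched on both strands for the NRF1 motif, read as GCGCA, any base and then GCGC, and for CCGGAAG, the motif of GABPA, the other classical nuclear factor of respiratory genes. The NRF1 motif matched in 3 genes, TFAM, TFB1M and POLRMT, and in 5.78% of all 35116 windows. CCGGAAG matched in 4 genes, TFB1M, POLRMT, SLIRP and SSBP1, and in 10.3% of all windows. The counts are of genes and the shares of windows, and SLIRP and SSBP1 have multiple overlapping windows, so counts and shares are not directly comparable. Capitals mark these matches in the following windows, which hold the 3 genes with an NRF1 motif and SLIRP as the called gene.
TFAM, chr10:58385160-58385459, plus strand: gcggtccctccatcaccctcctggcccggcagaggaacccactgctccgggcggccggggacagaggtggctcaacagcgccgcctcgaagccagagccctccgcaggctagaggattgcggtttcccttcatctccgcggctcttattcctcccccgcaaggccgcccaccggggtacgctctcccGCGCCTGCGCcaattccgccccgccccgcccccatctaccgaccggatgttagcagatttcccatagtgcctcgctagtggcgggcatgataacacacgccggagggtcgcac
TFB1M, chr6:155314435-155314734, minus strand: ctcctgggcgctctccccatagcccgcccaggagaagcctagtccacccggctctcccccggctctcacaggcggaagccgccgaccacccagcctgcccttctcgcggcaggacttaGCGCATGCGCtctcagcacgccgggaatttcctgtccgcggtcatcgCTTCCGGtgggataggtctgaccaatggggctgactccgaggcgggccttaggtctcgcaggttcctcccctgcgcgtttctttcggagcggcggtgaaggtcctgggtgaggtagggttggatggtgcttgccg
POLRMT, chr19:633488-633787, minus strand: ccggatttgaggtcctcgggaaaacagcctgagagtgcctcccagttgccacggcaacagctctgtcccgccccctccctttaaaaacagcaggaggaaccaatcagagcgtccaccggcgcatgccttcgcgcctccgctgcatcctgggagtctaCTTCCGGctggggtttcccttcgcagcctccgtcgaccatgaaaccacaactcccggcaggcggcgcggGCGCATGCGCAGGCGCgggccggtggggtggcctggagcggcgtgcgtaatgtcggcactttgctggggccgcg
SLIRP, chr14:77707821-77708120, plus strand: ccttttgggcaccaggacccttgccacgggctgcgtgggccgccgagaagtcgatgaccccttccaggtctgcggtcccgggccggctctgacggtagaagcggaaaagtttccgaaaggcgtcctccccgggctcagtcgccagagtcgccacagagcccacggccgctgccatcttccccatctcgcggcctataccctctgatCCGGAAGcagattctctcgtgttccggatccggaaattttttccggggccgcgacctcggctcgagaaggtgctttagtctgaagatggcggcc
In TFAM the NRF1 match starts 63 bases before the transcript start, and in TFB1M 132 bases before it. POLRMT has matches that start 24 and 18 bases before the transcript start and overlap each other by 4 bases. TFAM, TFB1M and POLRMT, which carry the NRF1 motif, had log2 fold changes of −0.11, 0.0049 and 0.03. SLIRP, whose window holds CCGGAAG 44 bases before the start and no NRF1 match, had −0.31. SSBP1, also with CCGGAAG and no NRF1 match, had 0.05, and TFB1M and POLRMT hold both motifs. A match describes the letters only and is not a measured binding site.

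Of the replication genes, POLG, the catalytic subunit of the mtDNA polymerase on chromosome 15 from 89305198 to 89334861, had 76.7 and 74.3 CPM in 2-D and 73.1 and 70.0 CPM in 3-D libraries. The 3-D libraries were both lower, with a log2 fold change of −0.076 (SE 0.04, adjusted p = 0.282). It passed with library size only (adjusted p = 0.0331) and with offsets for transcript length and GC content (adjusted p = 0.0394, log2 fold change −0.15), and over the 15 alternatives the adjusted p reached 0.798. Its exons overlap FANCI on the opposite strand over 5.53% of their bases.

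TWNK, on chromosome 10 from 100987367 to 100994403, which unwinds mtDNA ahead of the polymerase, had 45.3 and 46.4 CPM in 2-D and 48.0 and 49.6 CPM in 3-D libraries. It was higher in both 3-D libraries, with the largest positive value of the 10 genes, a log2 fold change of 0.09 (SE 0.05, adjusted p = 0.307), and was not called under any of the 15 alternatives. SSBP1, on chromosome 7 from 141738334 to 141787922, had 29.97 and 25.4 CPM in 2-D and 29.5 and 27.9 CPM in 3-D libraries, so that the 2-D libraries enclosed the 3-D ones. Its log2 fold change of 0.05 (SE 0.08, adjusted p = 0.797) became −0.062 without 2-D replicate 2 and 0.17 without 2-D replicate 1. An alternate contig of chromosome 7 aligned to 74.3% of its transcript at 99.8% identity, so reads of SSBP1 could have been divided or dropped and its level is uncertain.

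SLIRP, on chromosome 14 from 77708071 to 77761104, encodes a small RNA-binding protein that acts in a complex with LRPPRC. It had 108 and 109 CPM in 2-D libraries and 91.2 and 83.8 CPM in 3-D libraries, from 3724, 3372, 1874 and 1502 counts. The conditions were well separated, with a fall of 19.5% in 3-D grown cells, a log2 fold change of −0.31 with an error of 0.04 (SE; edgeR, adjusted p = 4.98e-04). SLIRP was called under all 15 alternatives, with log2 fold changes from −0.38 to −0.25 and an adjusted p of at most 0.0021. Copies of its transcript elsewhere in the genome were at most 89.3% identical over 80% or more of its length. A shorter alignment, over 28.7% of the transcript, had 95.3% identity. The exons of SLIRP overlap SNW1 on the opposite strand over 4.48% of their bases and C14orf178 on the same strand over 10.3%.

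LRPPRC, on chromosome 2 from 43886224 to 43996226, had 440.2 and 438 CPM in 2-D and 414 and 421 CPM in 3-D libraries. The 3-D libraries were lower, with a log2 fold change of −0.073 (SE 0.03, adjusted p = 0.169), which did not pass. The adjusted p was 0.0243 without 3-D replicate 2 and 0.0127 with library size only, and over the 15 alternatives it reached 0.601. SLIRP and LRPPRC had log2 fold changes of −0.31 and −0.073, and the difference between these was not tested. Their transcripts have 376 and 6603 bases, and fold changes in these libraries varied with transcript length, as given below. The ratio of LRPPRC to SLIRP in CPM was 4.07 and 4.01 in 2-D libraries and 4.54 and 5.03 in 3-D libraries. These ratios did not overlap, and the smallest p that an exact permutation test (two-sided) of 2 against 2 libraries allows is 0.333.

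SLIRP also has the shortest transcript of the 10 genes, 376 bases, and short transcripts tended to lower fold changes. Among nuclear protein-coding genes with a mean of at least 10 CPM, the 136 genes with transcripts of up to 600 bases had a median log2 fold change of −0.095, with 30.9% of them called lower and 13.2% called higher. The 303 genes over 600 and up to 1000 bases had a median of −0.04, with 15.5% called lower. The 3202 genes over 2000 and up to 4000 bases, where TFB1M, POLRMT, TWNK and NRF1 lie, had a median of 0.01, with 4.65% called lower. SLIRP lay below the lower quartile of its own length class, −0.25, and 19.1% of that class had a value as low as or lower than SLIRP. With offsets for transcript length and GC content, an alternative chosen after seeing the data, the log2 fold change of SLIRP was −0.27 (SE 0.03, edgeR, adjusted p = 2.26e-04). For TFAM the same offsets gave −0.075 (adjusted p = 0.145).

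**Figure D2:**
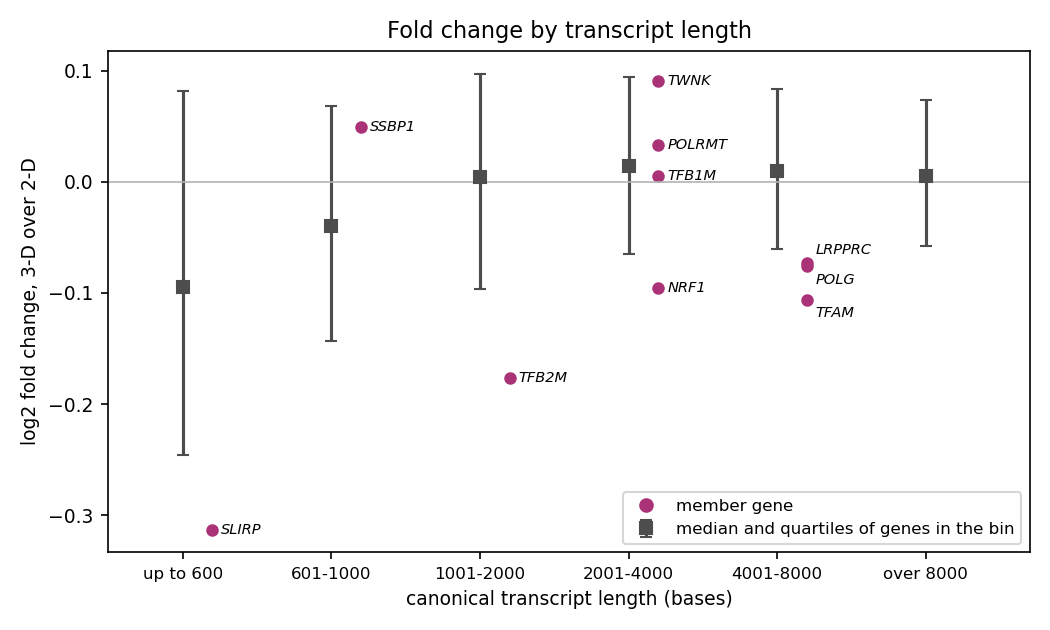
Squares are the median log2 ratio (3-D over 2-D) in classes of canonical transcript length in bases, over nuclear protein-coding genes with a mean of at least 10 CPM, with bars from the lower to the upper quartile; purple points are the 10 genes, drawn beside their class. The class of up to 600 bases has a median of −0.095, SLIRP lies at −0.31 below its lower quartile, and the medians of the classes over 1000 bases lie near 0.

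The mitochondrially encoded proteins are the products that these regulators act on, and they were set beside them. Their 13 genes took 5.27% and 5.05% of all counts from 2-D and 8.47% and 8.30% from 3-D grown cells. Leaving the mitochondrial rRNA genes out of the totals changed no share by more than the spread between replicates. The values of the conditions were far apart, 5.16% ± 0.153 in 2-D and 8.38% ± 0.122 in 3-D grown cells (SD, n = 2 each), a ratio of 1.62.

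All 13 genes had positive log2 fold changes, from 0.44 for MT-ND4L to 1.03 for MT-ATP6, and 12 were called. MT-ATP6, a subunit of the ATP synthase at 8527 to 9207 of the mitochondrial genome, had 4097 and 3792 CPM in 2-D and 8290 and 7800 CPM in 3-D libraries (SE 0.04, edgeR, adjusted p = 1.79e-08). MT-ND2 and MT-ND1, subunits of the NADH dehydrogenase, followed with 0.96 and 0.88. MT-CO2, MT-CO1 and MT-CO3, the core of cytochrome c oxidase, had 0.84, 0.76 and 0.67, and MT-CYB, of the cytochrome bc complex, had 0.77. MT-ND4, MT-ND3 and MT-ND5 had 0.78, 0.59 and 0.50. MT-ND6, the one protein encoded on the other strand, had 1794 and 1645 CPM in 2-D and 2838 and 2205 CPM in 3-D libraries, a log2 fold change of 0.55 (SE 0.08, adjusted p = 0.0015). The methods do not state whether strand was used in counting. The counts of MT-ND6 may therefore include reads of the opposite strand, and the level of its own strand is uncertain.

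MT-ATP8, with 207 bases the shortest of the 13, was the exception. It had 545 and 436 CPM in 2-D and 1032 and 426 CPM in 3-D libraries, so the second 3-D library lay below both 2-D libraries. Its log2 fold change of 0.57 (SE 0.26, adjusted p = 0.233) did not pass, and leaving out 3-D replicate 2 gave 1.07 and leaving out 3-D replicate 1 gave −0.20, called in both cases. MT-ATP8 also shares 46 of its bases with MT-ATP6, which the counting could divide between them.

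Nuclear copies of mtDNA can take reads from these genes. MT-ND2, MT-CO1, MT-CO2 and MT-ATP6 each have a copy on chromosome 1 over at least 80% of their length at 98% identity or more. The 7 pseudogenes at that site held 1.37% and 1.28% as many counts as the 13 genes in 2-D and 1.90% and 1.95% in 3-D libraries. MTATP6P1 alone held 9.88% to 10.8% as many counts as MT-ATP6 in 2-D and 15.5% to 16.3% in 3-D libraries. MTND2P28 held 6.99% and 7.49% as many counts as MT-ND2 in 2-D and 5.55% and 5.71% in 3-D libraries, a change the other way. The values of MT-ATP6 and MT-ND2 are uncertain by such shares.

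The mitochondrial rRNAs cannot be read in the same way, since the library kit removes ribosomal RNA. MT-RNR1 and MT-RNR2 together had 182 and 5961 counts in 2-D and 456 and 341 counts in 3-D libraries. The second 2-D library stood apart, and without it the log2 fold changes of MT-RNR1 and MT-RNR2 turned from −3.02 to 1.69 and from −1.94 to 2.05. Without the same library, 12 of the 13 proteins were still called higher, and SLIRP had a log2 fold change of −0.30 (adjusted p = 9.80e-05).

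Mitochondrial mRNA per unit of regulator mRNA was higher in 3-D grown cells for all 10 genes. The summed CPM of the 13 mRNAs were 344 and 320 times the CPM of TFAM in 2-D libraries and 623 and 590 times in 3-D libraries. Against LRPPRC the ratios were 118 and 113 in 2-D and 211 and 201 in 3-D libraries. Against SLIRP they were 479 and 451 in 2-D and 956 and 1010 in 3-D libraries. Against POLRMT they were 912 and 879 in 2-D and 1526 and 1448 in 3-D libraries. The mean of this quantity in 3-D over that in 2-D grown cells was 2.114 for SLIRP, 1.92 for TFB2M, 1.83 for TFAM and 1.82 for NRF1. It was 1.79 for LRPPRC and for POLG, 1.69 for TFB1M, 1.66 for POLRMT, 1.63 for SSBP1 and 1.59 for TWNK. All 10 quantities have the summed mRNAs as numerator, and the summed mRNAs themselves had a ratio of 1.70. The higher values for all 10 genes, without overlap of the conditions, follow largely from that sum. Other nuclear genes were not compared in this way. No sequenced value here measures mtDNA copy number or protein.

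**Figure D3:**
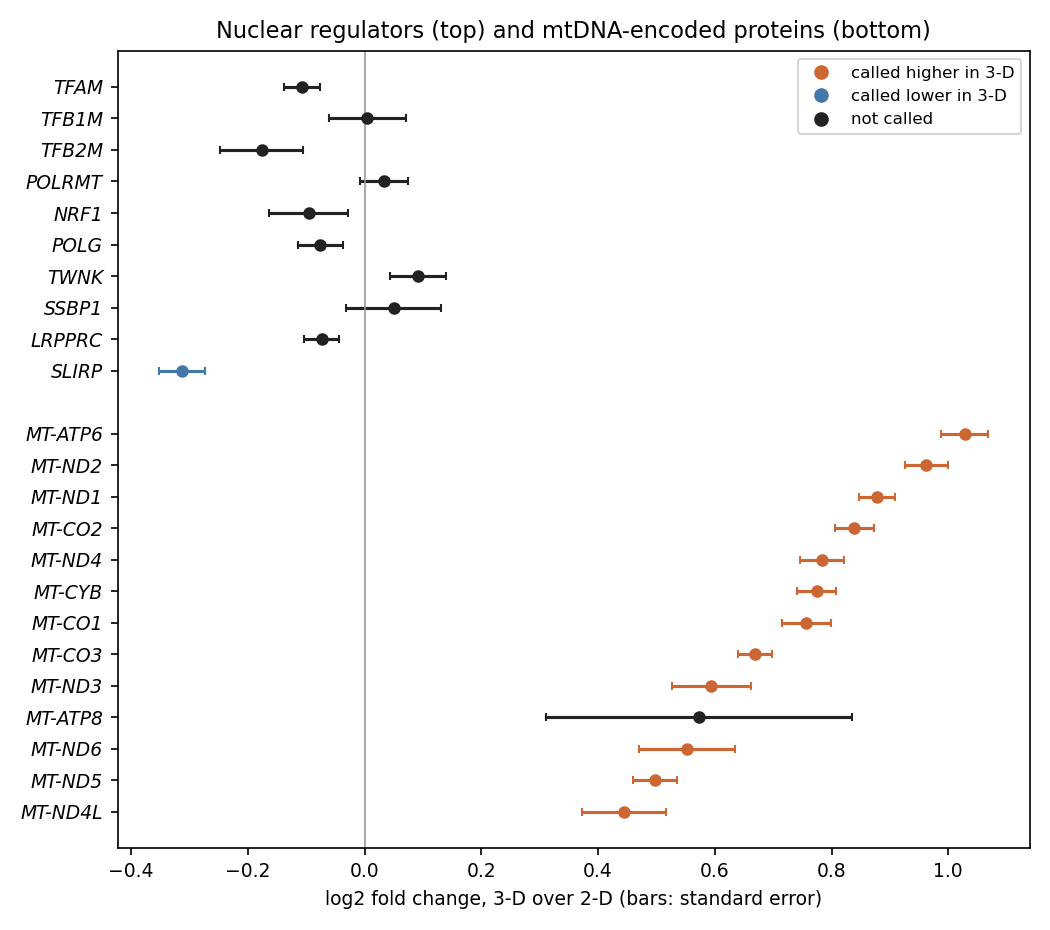
Points are log2 ratios (3-D over 2-D) for the 10 nuclear genes (top) and the 13 mitochondrially encoded proteins (bottom), and bars are standard errors (edgeR); orange and blue mark genes called higher or lower at an adjusted p below 0.05. The nuclear genes lie between −0.31 and 0.09 and the mitochondrially encoded ones between 0.44 and 1.03, with the widest bar for MT-ATP8.

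The other genes of the pathway were taken from 8 lists with 107 genes, written from general knowledge of mitochondrial gene expression. Of the 106 tested, 7 passed with higher and 8 with lower values in 3-D grown cells, and the median was −0.011. Among all tested genes 7.9% were called, and 18% of those with a mean of at least 20 CPM, which some of the list genes did not reach. The same shares are the background for the counts of called genes in single lists below. The 6 other transcription factors of mitochondria had log2 fold changes from −0.20 to 0.10 and unadjusted p-values above 0.05. TEFM, the elongation factor, had 16.1 and 13.8 CPM in 2-D and 15.4 and 12.5 CPM in 3-D libraries, which overlap.

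Of 12 other replication and nucleoid genes, 1 was called in each direction. DNA2, a nuclease and helicase of mitochondria and nucleus, had 89.1 and 95.1 CPM in 2-D and 77.1 and 77.3 CPM in 3-D libraries, a log2 fold change of −0.25 (SE 0.04, adjusted p = 0.00166). ATAD3A, a membrane ATPase near nucleoids, had 39.6 and 39.0 CPM in 2-D and 43.3 and 50.9 CPM in 3-D libraries, a log2 fold change of 0.26 (adjusted p = 0.0365) that was called in 8 of the 15 alternatives, and fell short when 3-D replicate 2 (0.14) or 2-D replicate 2 (0.25) was left out, among others. POLG2, the accessory subunit of POLG, had a log2 fold change of −0.13 (SE 0.07, adjusted p = 0.269), with both 3-D libraries lower.

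Of 9 genes for deoxynucleotide supply, RRM2B alone was called. This subunit of a p53-induced ribonucleotide reductase had 115 and 114 CPM in 2-D and 101 and 98.5 CPM in 3-D libraries, a log2 fold change of −0.19 (SE 0.03, adjusted p = 0.00278). Genes that process or modify mitochondrial RNA were below 0 in 13 of 18 cases, with a median of −0.072, and TRMT10C, a subunit of the enzyme that cuts transcripts at tRNAs, was called with a log2 fold change of −0.20 (SE 0.05, adjusted p = 0.0277). Genes of RNA stability and decay were below 0 in 14 of 20 cases, with a median of −0.037, where 50% of all tested genes had values below 0. MTPAP, the poly(A) polymerase of mitochondria, was the called gene among them, with 69.4 and 73.2 CPM in 2-D and 64.5 and 64.7 CPM in 3-D libraries, a log2 fold change of −0.14 (SE 0.04, adjusted p = 0.0465). This call is close to the threshold and held in 6 of the 15 alternatives, and that of TRMT10C in 8.

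Translation factors of mitochondria had 9 of 12 values above 0, with a median of 0.04. TUFM, the elongation factor that brings tRNAs to mitochondrial ribosomes, was called with 142 and 139 CPM in 2-D and 164 and 169 CPM in 3-D libraries, a log2 fold change of 0.24 (SE 0.03, adjusted p = 5.36e-04), and was called under all 15 alternatives.

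Of 13 tested regulators of biogenesis, 2 were called higher and 1 lower. PPRC1, a coactivator of NRF1 that belongs to the family of PPARGC1A, had 129 and 127.5 CPM in 2-D and 144 and 147 CPM in 3-D libraries, a log2 fold change of 0.19 (SE 0.03, adjusted p = 0.00228). HCFC1, a chromatin cofactor, had 361 and 360 CPM in 2-D and 414 and 424 CPM in 3-D libraries. Its log2 fold change was 0.22 (SE 0.03, edgeR, adjusted p = 9.16e-04). ESRRA, an orphan nuclear receptor of energy metabolism, had 28.5 and 28.2 CPM in 2-D and 24.3 and 23.7 CPM in 3-D libraries, a log2 fold change of −0.24 (SE 0.06, adjusted p = 0.0388). The call of ESRRA held in 10 of the 15 alternatives and was lost with edgeR's likelihood ratio test, with DESeq2, and when either 2-D library or 3-D replicate 2 was left out, with log2 fold changes from −0.25 to −0.22. The coactivator PPARGC1A had 8.22 and 7.92 CPM in 2-D and 9.001 and 9.04 CPM in 3-D libraries (log2 fold change 0.16, SE 0.10, adjusted p = 0.419). PPARGC1B had a log2 fold change of 0.07 (adjusted p = 0.38) and GABPA 0.02 (adjusted p = 0.887), which became −0.047 with library size only. ESRRB, at 6 and 2 counts in 2-D and 0 in both 3-D libraries, was too low to be tested.

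Of 16 proteins used as measures of mitochondrial content, namely import, chaperone and membrane proteins and the matrix enzyme CS, 3 were called higher and 3 lower, with a median of 0.02 and summed levels of 4130 and 4166 CPM in 2-D and 4204 and 4230 CPM in 3-D libraries. HSPE1, the small co-chaperonin, had 89.7 and 86.0 CPM in 2-D and 60.7 and 59.7 CPM in 3-D libraries, a log2 fold change of −0.54 (SE 0.04, adjusted p = 5.13e-06). Its transcript of 557 bases lies in the same length class as that of SLIRP. The import receptor TOMM20 and the outer membrane channel VDAC3 were called lower, by −0.15 and −0.13, and the chaperone HSPA9, the import channel TOMM40 and the import motor subunit TIMM44 higher, by 0.11, 0.12 and 0.14 on the log2 scale. These calls were less stable, and held in 13 of the 15 alternatives for TOMM20, 11 for HSPA9, 9 for VDAC3 and 7 each for TOMM40 and TIMM44. Of the 15 called pathway genes, DNA2, RRM2B, TUFM, PPRC1, HCFC1 and HSPE1 were called under all 15 alternatives.

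**Figure D4:**
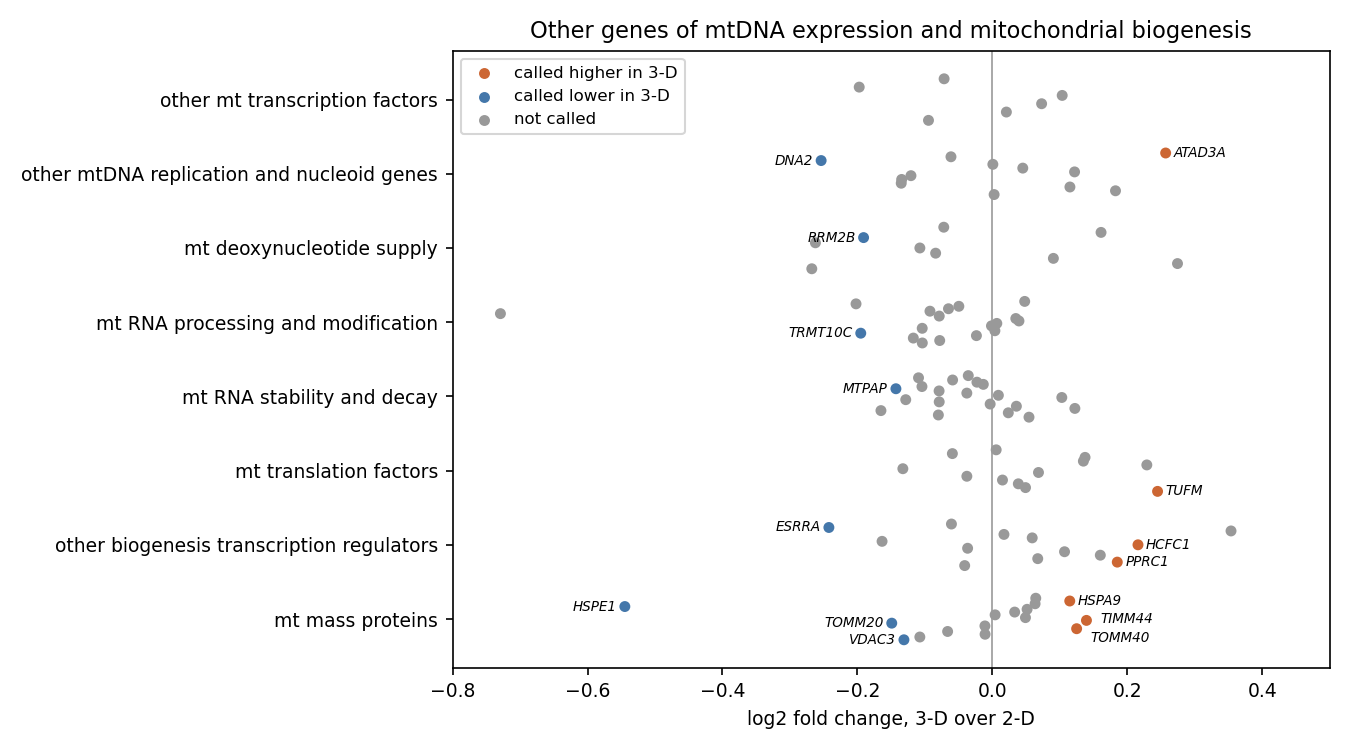
Each point is the log2 ratio (3-D over 2-D) of 1 of the 106 tested genes in 8 lists (rows; mt stands for mitochondrial, and mass proteins are the import, chaperone and membrane proteins and CS); orange and blue points with names were called higher or lower at an adjusted p below 0.05 and grey points were not. The 7 higher and 8 lower genes are spread over the lists, and HSPE1 has the most negative value of the called ones, −0.54.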

How the data were processed

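RNA of 2-D and 3-D grown Elf1 cells was depleted of ribosomal RNA with the KAPA RNA HyperPrep Kit with RiboErase and sequenced with paired ends. The authors trimmed reads with Trim Galore 0.6.3, mapped them to hg38 with HISAT2 2.1.0 and assigned them to genes of GENCODE release 30 with featureCounts 1.6.4. The authors deposited raw counts for each gene in each library, without pooling. They also deposited a normalized signal, which equals those counts over a size factor of DESeq2 and entered 1 alternative. Other columns of that table hold the authors' own DESeq2 comparison (log2 fold change, its error, test statistic, p-values) and were not used.

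Identifiers were matched to GENCODE release 44 on hg38 (60295 of 60564, the 269 others holding 0.122% of counts). The counts were fitted in edgeR 4.0.16 (R 4.3.3) by its quasi-likelihood test on condition, after TMM scaling and the default filter for low genes, and p-values were adjusted by Benjamini-Hochberg over all tested genes. CPM are TMM-normalized, and a standard error is the size of the log2 fold change over the square root of F. Called means an adjusted p below 0.05. Totals of 18276147 to 33833778 counts set the precision.

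The 10 genes and the lists were chosen with earlier results of these data known. The text names the 10 genes, the genes of mtDNA, every called gene of the pathway lists, and PPARGC1A, PPARGC1B, PPRC1, GABPA, ESRRA, TEFM and POLG2. ESRRB and the marker genes named were chosen after their values were seen. Of 15 alternatives, 14 were planned: DESeq2 1.42.0, edgeR with a likelihood ratio test, with size factors of DESeq2 or with library size only, scaling without genes of mtDNA, 2 other filters on low counts, a replicate block, limma-trend (limma 3.58.1) on the deposited signal (log2, pseudocount 1), 2-D libraries thinned to the 3-D depth, and each of the 4 libraries left out. Copies were sought with minimap2 2.31-r1302 (canonical transcripts against hg38 with alternate contigs).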

Additional observations from a re-analysis of the deposited data

How the results depend on the processing

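SLIRP was called lower under all 15 alternatives. Of the 13 mitochondrially encoded proteins, 11 to 13 were called under each, all higher except MT-ATP8 without 3-D replicate 1. The number of the 10 genes called, 1 in the main analysis, was 4 with library size only (SLIRP, TFAM, LRPPRC and POLG), 2 with no filter on low counts, with at least 10 counts in every library and with the replicate block (SLIRP and TFAM each time), 2 with offsets for transcript length and GC content (SLIRP and POLG), and 1 to 3 with a library left out. Over all genes 1782 were called, as many with scaling without the genes of mtDNA, while edgeR's likelihood ratio test gave 1139, DESeq2 795 and a library left out 974 to 2643. Of the pathway genes, 15 were called, and 6 with the likelihood ratio test, 8 with DESeq2, 27 with library size only and 6 to 19 with a library left out. A fit with 1 library in a condition assumes that it varies like the other condition's libraries.

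These log2 fold changes turned their sign. With library size only, TFB1M was −0.060, POLRMT −0.031, SSBP1 −0.015 and GABPA −0.047. With at least 10 counts in every library TFB1M was −0.0026, and with the offsets POLRMT was −0.019. With a library left out, TFB1M ranged from −0.023 to 0.033, SSBP1 from −0.062 to 0.17, GABPA from −0.045 to 0.083, TEFM from −0.26 to 0.044, MT-ATP8 from −0.20 to 1.07, MT-RNR1 from −4.01 to 1.69 and MT-RNR2 from −2.90 to 2.05. The causes were not tested.

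Differences between replicates 1 and 2 had a correlation of −0.0079 between conditions over 22555 genes, so no deviation shared by same-numbered libraries was seen. This cannot decide whether same-numbered libraries were grown or prepared together. The replicate block called 2167 genes in all, 13 of the 13 mitochondrially encoded proteins and 18 pathway genes. The smallest difference that 2 libraries per condition can show was not measured, and an uncalled gene is not shown to be equal in both conditions.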
